A study of Mus musculus with 3 samples.

Results

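The genes described here encode Wnt ligands, the proteins that process them, their receptors and co-receptors, their secreted antagonists, the R-spondins, and the feedback genes of the pathway. They were taken as a named list of 47 genes, and 46 of them had a value through the platform's gene symbols, among 19938 named genes in all. Tcf7 was the gene without a value. Their transcripts were read on single arrays of 3 cultured lines of mouse fibroblasts from the forestomach, the squamous-lined front part of the rodent stomach. The cells were positive for FSP1, a marker of fibroblasts that is the product of S100a4. The first line was wild type and came from normal forestomach. The second had a conditional knockout (cKO) of the TGF-beta type II receptor gene, Tgfbr2, and came from a forestomach squamous cell carcinoma. In the third, from normal forestomach, both Tgfbr2 and Smad4 were conditionally knocked out. Smad4 gives the SMAD partner used by the TGF-beta and BMP branches alike. All 3 lines were grown in serum-containing medium without an added agent. The labels describe the mice as mixed C57BL6 and BALBc, of either sex, and give neither age nor the driver of the Cre recombinase. Each group is a single line, so genotype, tissue of origin and line cannot be told apart.

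Wnt proteins are lipid-modified secreted ligands that bind Frizzled receptors. Together with the co-receptors LRP5 and LRP6 this binding stabilises beta-catenin, which acts with TCF and LEF proteins in the nucleus, whereas ROR and RYK receptors carry signals that do not need beta-catenin. Secreted antagonists of the SFRP and WIF families bind the ligands, DKK proteins bind the LRP co-receptors, and R-spondins keep Frizzled receptors at the cell surface through LGR receptors. In the gut, fibroblasts are a source of Wnts, R-spondins and antagonists for the neighbouring epithelium.

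Of the 46 genes, 3 stood apart by at least 2-fold, all in the Tgfbr2/Smad4 cKO array. Frzb was the one lower there, and Wnt2 and Dkk2 were the ones higher. The bases before the RefSeq start of these 3 genes are shown because their signals differ most between the arrays. Dkk1, another antagonist of the DKK family, is shown beside them because its window holds letters of the TCF/LEF motif while its value was the same in all 3 arrays. Each run holds the 250 bases before the start, 5′ to 3′ on the strand of the gene, from RefSeq on GRCm38.p6. Capitals mark the letters of 3 motifs on either strand. For TCF/LEF, the spellings CTTTGAA and also CTTTGAT, and beside these CTTTGTA and finally CTTTGTT, were searched. The SMAD motif was CAGAC, and the GC-rich element of BMP-activated SMADs was GGCGCC. No match of one motif overlapped a match of another in the windows of these genes. The windows lie at chr6:18030446-18030695 on the minus strand for Wnt2, chr3:132085042-132085291 on the plus strand for Dkk2, chr2:80447397-80447646 on the minus strand for Frzb and chr19:30549497-30549746 on the minus strand for Dkk1.
Wnt2: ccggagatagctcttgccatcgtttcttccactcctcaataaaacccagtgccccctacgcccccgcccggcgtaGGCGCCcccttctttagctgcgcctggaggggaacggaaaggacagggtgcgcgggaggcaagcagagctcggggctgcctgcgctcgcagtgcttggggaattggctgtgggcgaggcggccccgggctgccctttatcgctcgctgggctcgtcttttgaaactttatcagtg
Dkk2: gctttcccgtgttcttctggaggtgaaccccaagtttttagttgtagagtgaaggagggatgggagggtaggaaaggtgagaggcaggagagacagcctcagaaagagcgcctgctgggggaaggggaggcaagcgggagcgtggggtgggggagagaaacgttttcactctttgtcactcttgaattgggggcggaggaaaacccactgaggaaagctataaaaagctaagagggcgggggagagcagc
Frzb: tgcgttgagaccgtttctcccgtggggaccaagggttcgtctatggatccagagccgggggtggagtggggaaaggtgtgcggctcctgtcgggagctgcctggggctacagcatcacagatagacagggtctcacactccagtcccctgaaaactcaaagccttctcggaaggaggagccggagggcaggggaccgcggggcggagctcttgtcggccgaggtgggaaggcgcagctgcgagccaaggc
Dkk1: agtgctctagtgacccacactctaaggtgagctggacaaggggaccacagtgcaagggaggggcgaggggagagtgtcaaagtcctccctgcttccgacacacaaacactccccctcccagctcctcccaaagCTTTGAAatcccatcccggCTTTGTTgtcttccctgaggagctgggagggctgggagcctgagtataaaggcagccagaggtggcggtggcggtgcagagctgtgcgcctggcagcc

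The windows of Dkk2 and Frzb held none of these letters. That of Wnt2 held GGCGCC from 175 bases before the start, and that of Dkk1 held a TCF/LEF match (CTTTGAA) from 117 bases before it and a second match, spelled CTTTGTT, from 98 bases before it. The Wnt2 table entry also held CAGAC within the 50 bases after the start, as did that of Dkk1. RefSeq entries of 300 bases were found for 30 of the 47 genes, as 38 start sites. A TCF/LEF match was found at 13.2% of these start sites, against 16.9% of all 32851 promoters in the table. The SMAD letters were found at 52.6% against 49.6%, and GGCGCC at 31.6% against 11.9%. The median GC content was 65.2% for the 38 start sites and 52.7% for all promoters, and its part in the GGCGCC share was not tested. Start sites of 1 gene can overlap and then hold the same match. The 12 start sites with GGCGCC belonged to 10 of the 30 genes, and the 20 with the SMAD letters to 16. Tcf7, which has no array value, is among the genes of both. With the 250 bases before the start alone, the SMAD share was 42.1% against 42.2%. The GGCGCC share was then 31.6% against 9.59%, and the TCF/LEF share 13.2% against 14.8%.

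The values are log2 signals, in which a difference of 1 is 2-fold. Many values were exactly equal between arrays. Of the 46 Wnt genes, 20 had the same value in all 3 arrays, or 43.5%, and of all named genes 47.9% did. An equal value is thus common in this table. It is given below as equal, not as evidence that a gene did not change. The deposited table has no detection call, so levels are set only against 6.63, the median of all deposited values. In 38 of the 46 Wnt genes the highest array reached that median, and in the same 38 the mean over the arrays did. Probes of different genes differ in brightness, so levels are compared between arrays and not between genes. Single arrays leave every difference without replicates, so none is tested, and precision is limited by the number of arrays.

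**Figure D1:**
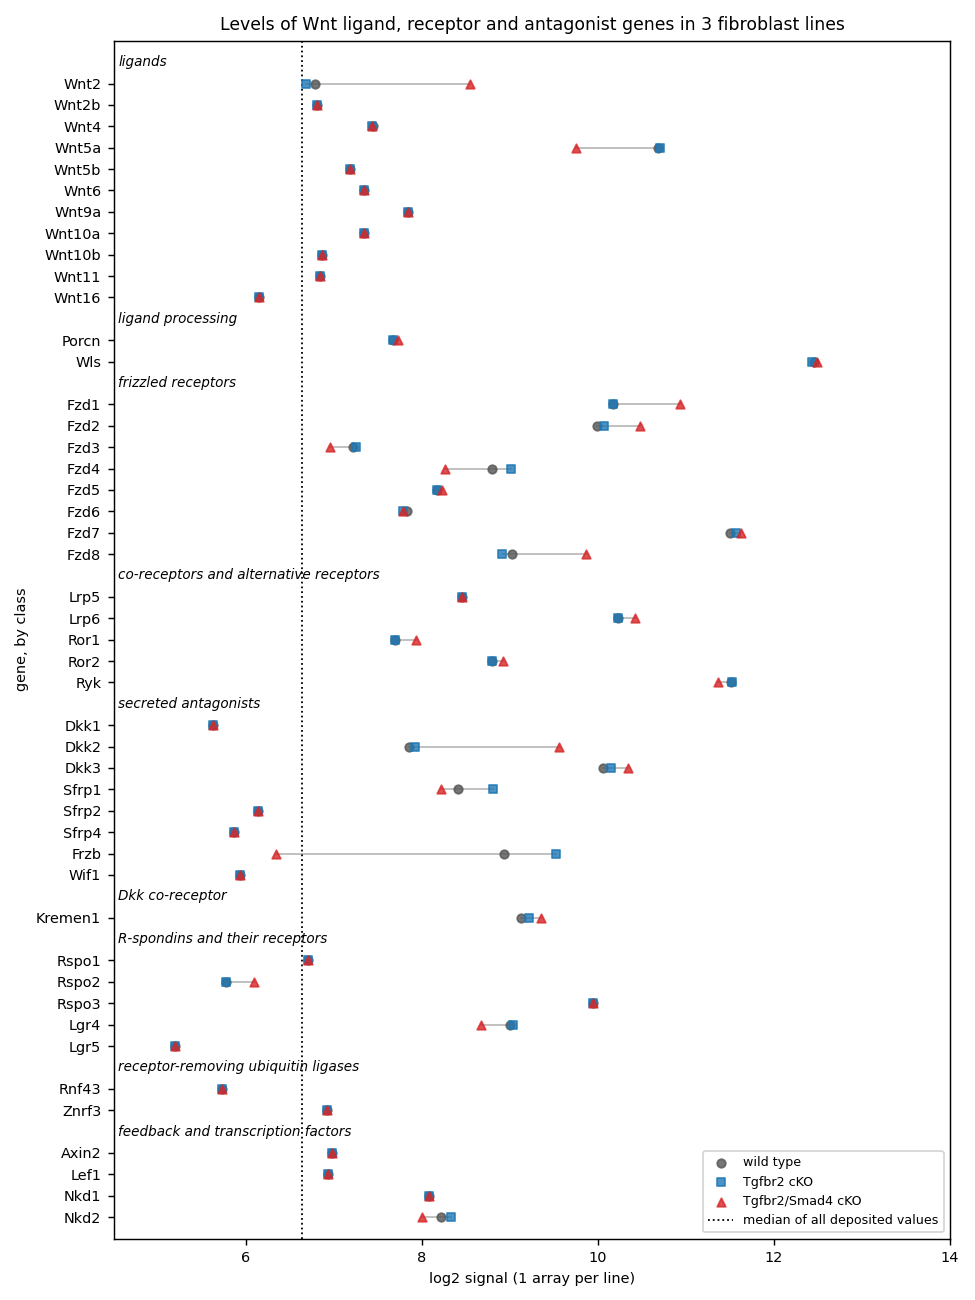
Log2 signal (horizontal axis) of the 46 Wnt genes (vertical axis, by class) in the wild-type (circles), Tgfbr2 cKO (squares) and Tgfbr2/Smad4 cKO (triangles) arrays, 1 array per line, with the median of all deposited values, 6.63, as a dotted line. Most symbols of a gene overlap, and the widest gaps are those of Frzb, Wnt2 and Dkk2, where the Tgfbr2/Smad4 cKO array lies away from both others.

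The checks of the lines bear on all that follows. Tgfbr2 had levels of 10.25, 10.25 and 10.29 and Smad4 levels of 11.06, 11.06 and 11.04 in the order wild type, Tgfbr2 cKO, Tgfbr2/Smad4 cKO. A transcript-level value sums up probes along the gene and cannot separate removed exons, so it checks the labels neither way, and the arrays are named as labelled. S100a4, the FSP1 gene, had levels of 13.18, 13.16 and 12.71. Xist had levels of 5.33, 5.35 and 9.44 and the Y-linked gene Eif2s3y levels of 10.12, 10.00 and 5.01, so the Tgfbr2/Smad4 cKO array also differs in sex pattern. Proliferation genes were lower in the Tgfbr2/Smad4 cKO array than in wild type in 11 of 11, with 8 at least 2-fold lower and summed linear signals of 11022, 9739 and 4566 in that order of arrays. Smooth muscle and pericyte markers were lower in 8 of 11, 5 of them at least 2-fold, with summed linear signals of 76935, 80298 and 44039. Mesothelial markers were lower in 7 of 7, 3 of them at least 2-fold, with sums of 2291, 1736 and 843. Of these, Lrrn4 and Gpm6a were lower by only 0.03 and 0.02 and lay under the median signal. Epithelial markers were lower in 3 of 11, with sums of 1275, 1378 and 872. Krt19 is in both of these lists, at 8.82, 9.25 and 6.93, so their counts and sums are not independent. The 8 endothelial markers were equal in all 3 arrays, and so was Ptprc, which marks leukocytes, at 5.23. Leukocyte markers were lower in 3 of 8, with sums of 929, 1299 and 703, and glial and neuronal markers in 1 of 5, with sums of 1298, 1280 and 894. The 13 fibroblast markers had sums of 98351, 101290 and 110549. In Tgfbr2 cKO minus wild type mesothelial markers were lower in 6 of 7, and Krt19 was higher. Upk3b, at 8.79 in wild type and 7.72 in Tgfbr2 cKO, had the largest negative difference of all named genes there. Proliferation genes were lower in 10 of 11 in that comparison, none by 2-fold, and smooth muscle and pericyte markers in 2 of 11. The part of these differences in the Wnt values was not tested. In bulk cultures, fewer cells of a type and less RNA per cell cannot be told apart.

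Setting Tgfbr2 cKO against wild type asks what goes with the labelled loss of the receptor, here joined with origin in a carcinoma. None of the 46 Wnt genes differed 2-fold, and 0.0251% of all named genes did, 5 genes in all. At a size of 1.5-fold there was 1 Wnt gene, Frzb, against 0.246% of all named genes. Of the 46, 14 were above 0, 5 were below 0 and 27 were equal, or 58.7%. Of all named genes 3628 were above 0, 2987 below and 13323 equal, or 66.8%. The median difference was 0, as it was over all named genes.

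Wild type shares the normal tissue of origin of the Tgfbr2/Smad4 cKO array but differs from it in sex pattern. Against wild type, the Tgfbr2/Smad4 cKO array had 2 of the 46 Wnt genes higher by 2-fold or more and 1 lower by as much. That is 6.52% of them, against 2.02% of all named genes. Among genes whose mean over the arrays reached the median signal it is 7.89% of 38 Wnt genes, against 3.27% of 11695 named genes. By direction, 0.722% of all named genes were higher and 1.30% lower by that size. The share of Wnt genes rests on only 3 genes. At a size of 1.5-fold the count was 6, or 13.0%, against 5.21% of all named genes. Of the 46, 16 were above 0, 10 were below 0 and 20 were equal, with a median of 0, as over all named genes. Of all named genes 4951 were above 0, 4553 below and 10434 equal.

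Tgfbr2/Smad4 cKO against Tgfbr2 cKO sets the added loss of Smad4 beside the loss of the receptor, and joins it with a different tissue of origin and sex pattern. The counts were again 2 Wnt genes higher and 1 lower at the 2-fold size, against 2.13% of all named genes in either direction, with 0.782% higher and 1.34% lower. Among genes whose mean reached the median signal the shares were 7.89% of 38 Wnt genes and 3.44% of named genes. At 1.5-fold the count was 7, or 15.2%, against 5.53%. This comparison shares an array with each of the others, so the values of a gene are given side by side and the counts do not add to each other. In the Tgfbr2/Smad4 cKO array 0.622% of all named genes were set at least 2-fold above both other arrays and 1.11% below both, and of the Wnt genes Wnt2 and Dkk2 were set above and Frzb below.

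**Figure D2:**
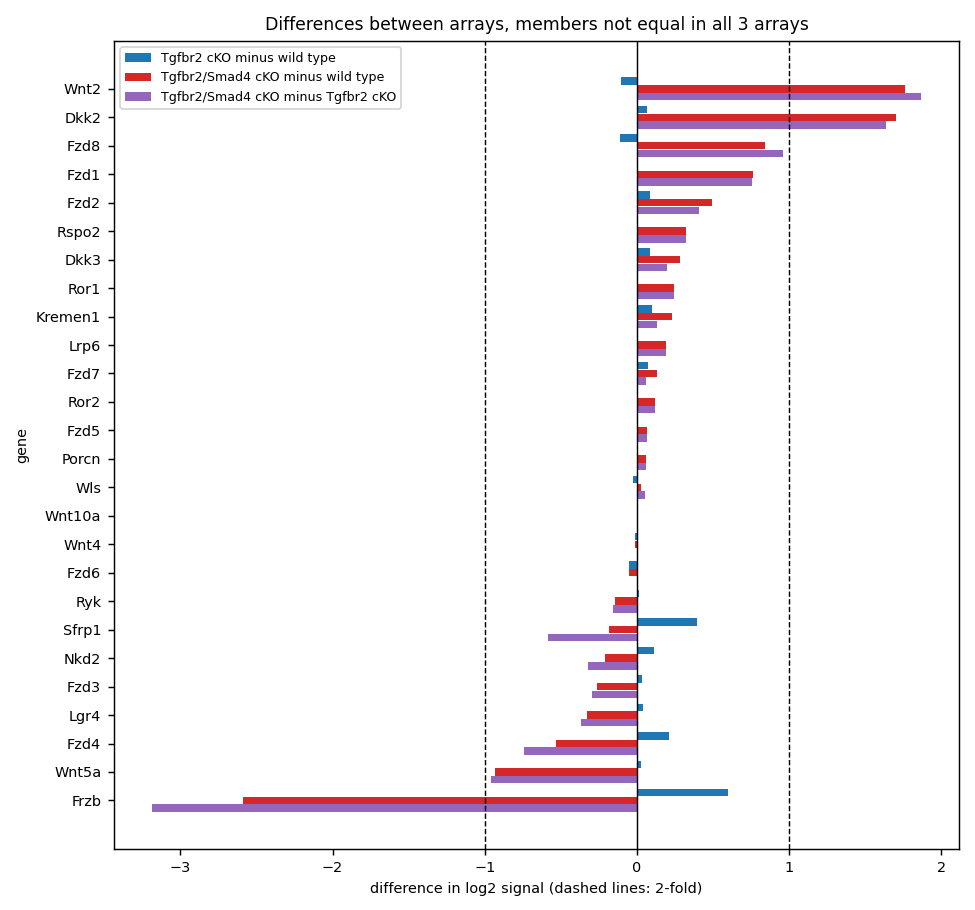
Difference in log2 signal (horizontal axis) for the 26 Wnt genes (vertical axis) that were not equal in all 3 arrays, with a bar for each of the 3 comparisons, sorted by Tgfbr2/Smad4 cKO minus wild type, and dashed lines at 2-fold. Bars of Wnt2, Dkk2 and Frzb pass the lines in both comparisons of the Tgfbr2/Smad4 cKO array, and no bar of Tgfbr2 cKO minus wild type does.

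Among the 11 ligands, Wnt2 and Wnt5a differed, and in opposite directions. Wnt2, a ligand of mesenchymal cells that can act through beta-catenin, had log2 signals of 6.79 in wild type, 6.68 in Tgfbr2 cKO and 8.55 in Tgfbr2/Smad4 cKO. The first 2 levels were close to the median signal and the third was well above it. The Tgfbr2/Smad4 cKO array was higher than wild type by 1.76, a 3.39-fold difference, and higher than the Tgfbr2 cKO array by 1.87, or 3.64-fold. Among all named genes these were the 42nd and 39th largest positive differences. Tgfbr2 cKO minus wild type was -0.10.

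Wnt5a, the best known ligand of the branches that do not use beta-catenin, had log2 signals of 10.68 in wild type, 10.70 in Tgfbr2 cKO and 9.75 in Tgfbr2/Smad4 cKO. The Tgfbr2/Smad4 cKO array was the low one. Its differences were -0.93 from wild type and -0.96 from the Tgfbr2 cKO array, sizes of 1.91-fold and 1.94-fold, just under the 2-fold size. The wild-type and Tgfbr2 cKO arrays differed by 0.03.

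The other 9 ligands varied little. Wnt2b, Wnt5b, Wnt6, Wnt9a, Wnt10b, Wnt11 and Wnt16 had equal values in all 3 arrays, at 6.80, 7.19, 7.34, 7.84, 6.86, 6.84 and 6.15. Wnt16 was thus the ligand under the median signal. Wnt10a had a difference of 0.01 between the Tgfbr2/Smad4 cKO and wild-type arrays. Wnt4 was the Wnt gene read by more than 1 probe set. One of its probe sets gave 7.20, 7.17 and 7.17, and the other gave 7.69 in each array.

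The 2 genes that ready Wnts for release had small differences. Porcn, the acyltransferase that attaches the lipid, had levels of 7.67, 7.67 and 7.73. Wls, the carrier that brings Wnts to the cell surface, had levels of 12.46, 12.43 and 12.49. Neither differed by more than 0.06 in any comparison.

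The 8 Frizzled receptors held 3 genes that differed by at least 1.5-fold in some comparison, and none by 2-fold. In Tgfbr2/Smad4 cKO minus wild type 2 of 8 did, or 25.0%, against 5.21% of all named genes. In Tgfbr2/Smad4 cKO minus Tgfbr2 cKO 3 of 8 did, or 37.5%, against 5.53%. These shares rest on few genes and set unlike groups side by side. All 8 receptors had a mean at or above the median signal, and none was equal in all 3 arrays. Of all 19938 named genes 11695 had such a mean, and 47.9% were equal in all 3 arrays. The 1.5-fold share of named genes at that level was not computed. Fzd8 had levels of 9.02 in wild type, 8.91 in Tgfbr2 cKO and 9.87 in Tgfbr2/Smad4 cKO, so the last array was higher by 0.84 than wild type and by 0.96 than Tgfbr2 cKO. Fzd1 had levels of 10.17, 10.17 and 10.93, with the Tgfbr2/Smad4 cKO array higher by 0.76 than each of the others. Fzd4, which besides Wnts binds norrin, had levels of 8.80, 9.01 and 8.26. Here the Tgfbr2/Smad4 cKO array was the lowest and the Tgfbr2 cKO array the highest. The difference between those arrays was -0.74, a size of 1.67-fold, and that from wild type was -0.53.

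Fzd2 lay on the same side as Fzd1 and Fzd8, with levels of 9.98, 10.07 and 10.48 and a difference of 0.49 from wild type. Fzd3 lay on the side of Fzd4, with levels of 7.22, 7.25 and 6.96. Fzd7, Fzd5 and Fzd6 differed by 0.13, 0.06 and -0.05 in the Tgfbr2/Smad4 cKO array against wild type. Of the 8 receptors 5 were thus above 0 and 3 below in that comparison, with a median of 0.10. Over all named genes the median was 0, with 4951 above 0 and 4553 below.

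The 5 co-receptors and alternative receptors differed by less than 1.5-fold throughout. The largest differences from wild type in the Tgfbr2/Smad4 cKO array were 0.24 for Ror1, a receptor of Wnt5a with levels of 7.69, 7.69 and 7.93, and 0.19 for Lrp6, with levels of 10.23, 10.23 and 10.42. Ror2, the other receptor of that family, differed by 0.12 and Ryk by -0.14. Lrp5 was at 8.45 in each array. In the Tgfbr2 cKO array 4 of the 5 were equal to wild type and Ryk differed by 0.01. Of all named genes 66.8% were equal in that comparison.

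The secreted antagonists held the widest differences among the Wnt genes. Frzb, also called Sfrp3, binds Wnts outside the cell through a domain like that of the Frizzled receptors. Its levels were 8.93 in wild type, 9.53 in Tgfbr2 cKO and 6.34 in Tgfbr2/Smad4 cKO. All 3 arrays lay apart, and only the last was under the median signal of 6.63. The Tgfbr2/Smad4 cKO array had a difference of -2.59 from wild type, a measured size of 6.02-fold and the 11th largest negative difference among all named genes. It had a difference of -3.18 from the Tgfbr2 cKO array, a measured size of 9.09-fold and the 6th largest negative one. Its signal in the Tgfbr2/Smad4 cKO array was dim and has no detection call, so these sizes depend on how low signals are treated. With 32 added to each linear signal they were -2.20 and -2.77. The Tgfbr2 cKO array was higher than wild type by 0.60, or 1.51-fold, the 28th largest positive difference of that comparison.

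Dkk2, which binds LRP5 and LRP6 and blocks or, in some settings, weakly activates them, had levels of 7.86, 7.92 and 9.56. The wild-type and Tgfbr2 cKO arrays differed by 0.07, and the Tgfbr2/Smad4 cKO array was higher by 1.70 and 1.63, or 3.25-fold and 3.10-fold. These were the 46th and 57th largest positive differences among all named genes. Kremen1, a receptor for DKK proteins, had levels of 9.12, 9.22 and 9.35, a difference of 0.23 between the Tgfbr2/Smad4 cKO and wild-type arrays.

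Sfrp1, of the same family as Frzb, had levels of 8.40, 8.80 and 8.22. As with Frzb, the Tgfbr2 cKO array was the highest and the Tgfbr2/Smad4 cKO array the lowest. The difference between those arrays was -0.58, a size of 1.498-fold and so just under 1.5-fold, and that between the Tgfbr2 cKO and wild-type arrays was 0.40. Dkk3, a divergent DKK protein, was highest in the Tgfbr2/Smad4 cKO array, at 10.06, 10.14 and 10.34. The other 4 antagonists, Dkk1, Sfrp2, Sfrp4 and Wif1, were equal in all 3 arrays at 5.62, 6.13, 5.87 and 5.93, each under the median signal. In Tgfbr2/Smad4 cKO minus wild type the antagonists therefore split into 2 above 0, 2 below and 4 equal. Of all named genes 52.3% were equal there.

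R-spondins and their receptors differed by less than 1.5-fold. Lgr4, the R-spondin receptor found in many tissues, had levels of 9.00, 9.03 and 8.66, a difference of -0.33 between the Tgfbr2/Smad4 cKO and wild-type arrays. Rspo2 had levels of 5.77, 5.77 and 6.09, all under the median signal. Rspo3 was at 9.95 in each array, Rspo1 at 6.71 and Lgr5, a stem cell marker of gut epithelium, at 5.19. The ubiquitin ligase genes Rnf43 and Znrf3, whose products remove Frizzled receptors from the surface, were equal in all arrays at 5.72 and 6.92.

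The feedback genes are often read as a sign of beta-catenin activity. Axin2, a scaffold of the complex that degrades beta-catenin and a widely used target gene, was at 6.98 in each array. Lef1, a transcription factor partner of beta-catenin, was at 6.93 and Nkd1, an inhibitor of Dishevelled, at 8.08 in each. Nkd2 had levels of 8.22, 8.33 and 8.01, and a largest difference of -0.33 between the Tgfbr2/Smad4 cKO and Tgfbr2 cKO arrays. Of the 4 feedback genes with a value, 3 were equal in all arrays and none differed 1.5-fold. Of all named genes 47.9% were equal in all 3 arrays, and 5.21% differed 1.5-fold in Tgfbr2/Smad4 cKO minus wild type. These 4 genes were therefore not read as a measure of beta-catenin activity.

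The rest of the pathway was read from 4 lists of genes outside the 47, which held 144 genes, 141 of them with a value. In Tgfbr2/Smad4 cKO minus wild type 3 of them were higher and 2 lower by 2-fold or more, which is 3.55% against 2.02% of all named genes. Of the 141, 51 were above 0, 26 below and 64 equal, with a median of 0. Of all named genes 4951 were above 0, 4553 below and 10434 equal. In Tgfbr2/Smad4 cKO minus Tgfbr2 cKO the counts were also 3 and 2, or 3.55% against 2.13% of all named genes. In Tgfbr2 cKO minus wild type 0 differed 2-fold, where 0.0251% of all named genes did.

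Among 31 other extracellular genes, 2 were at least 2-fold higher in the Tgfbr2/Smad4 cKO array than in wild type and none was lower, a share of 6.45%, where 0.722% of all named genes were higher and 1.30% lower. At 1.5-fold 4 were higher and none lower, a share of 12.9%, where 5.21% of all named genes differed in either direction. Musk, a muscle receptor kinase with a Frizzled-like domain, had levels of 6.16, 6.22 and 7.41, so that only the Tgfbr2/Smad4 cKO array was above the median signal. Cpz, a carboxypeptidase that carries such a domain as well, had levels of 7.11, 7.13 and 8.14, a difference of 1.03 from wild type. Both differences fell under 2-fold with 32 added to each linear signal, where no gene of the 4 lists was 2-fold higher than wild type.

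At the 2-fold size 2.02% of all named genes differed in Tgfbr2/Smad4 cKO minus wild type. Of 40 genes of the destruction complex and the transcription partners of beta-catenin none differed 2-fold in any comparison, and 15 were equal in all 3 arrays. The gene of beta-catenin itself, Ctnnb1, had levels of 12.00, 12.00 and 12.01. The largest differences between the Tgfbr2/Smad4 cKO and wild-type arrays were 0.73 for Amer1, which binds the tumour suppressor APC, and 0.59 for Tcf7l2, a TCF transcription factor at 9.58, 9.58 and 10.17. Of 33 genes of the planar cell polarity and calcium branches none differed 2-fold either. Fat4, a giant cadherin, came closest with levels of 9.89, 10.05 and 10.89 and a difference of 0.9994. Nlk, a kinase that acts on TCF proteins, had levels of 9.73, 9.74 and 8.89. At 1.5-fold, 5.0% of the 40 genes and 12.1% of the 33 differed in Tgfbr2/Smad4 cKO minus wild type, against 5.21% of all named genes.

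Of 37 genes listed as beta-catenin targets, 1 was higher and 2 were lower by 2-fold or more in Tgfbr2/Smad4 cKO minus wild type, a share of 8.11% against 2.02% of all named genes. At 1.5-fold 4 were higher and 4 lower, a share of 21.6% against 5.21% of all named genes. In that list 17 were above 0, 8 below and 12 equal, and of all named genes 4951 were above 0, 4553 below and 10434 equal. Ephb3, an ephrin receptor, was the higher one at 9.04, 9.11 and 10.04, a difference of 1.00 that reached 2-fold by a narrow margin. The urokinase receptor gene Plaur was lower, with levels of 10.97, 11.09 and 9.68. Id2, which encodes an inhibitor of basic helix-loop-helix factors and is also a BMP target, was lower at 10.92, 10.91 and 9.79. Ccnd1, the gene of cyclin D1, had levels of 11.43, 11.05 and 12.13. It was lowest in the Tgfbr2 cKO array and the Tgfbr2/Smad4 cKO array was higher than that array by 1.08, or 2.11-fold, and higher than wild type by 0.70. The proliferation genes were lower in the same array, as given above, and their part in these values was not tested.

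**Figure D3:**
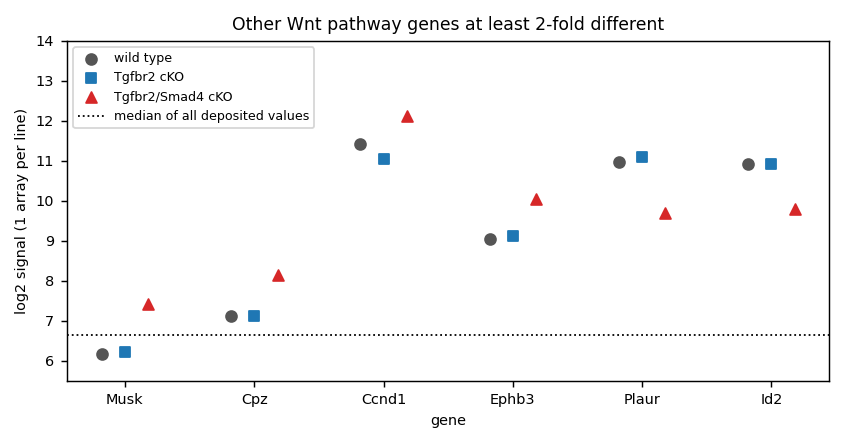
Log2 signal (vertical axis) of the 6 other Wnt pathway genes (horizontal axis) that differed at least 2-fold in any comparison, in the wild-type (circles), Tgfbr2 cKO (squares) and Tgfbr2/Smad4 cKO (triangles) arrays, 1 array per line, with the median of all deposited values as a dotted line. The Tgfbr2/Smad4 cKO array lies highest for Musk, Cpz, Ccnd1 and Ephb3 and lowest for Plaur and Id2.

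Set beside other gene lists, the Wnt genes had a median of 0 with a few genes far from it. The smooth muscle and pericyte markers had a median of -0.38 and the proliferation genes of -1.92 in Tgfbr2/Smad4 cKO minus wild type, while the median of the 13 fibroblast markers was 0.19, with 4 of them higher by 2-fold or more and 1 lower. The Wnt genes ranged from -2.59 to 1.76 and the smooth muscle and pericyte markers from -4.21 to 1.18.

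**Figure D4:**
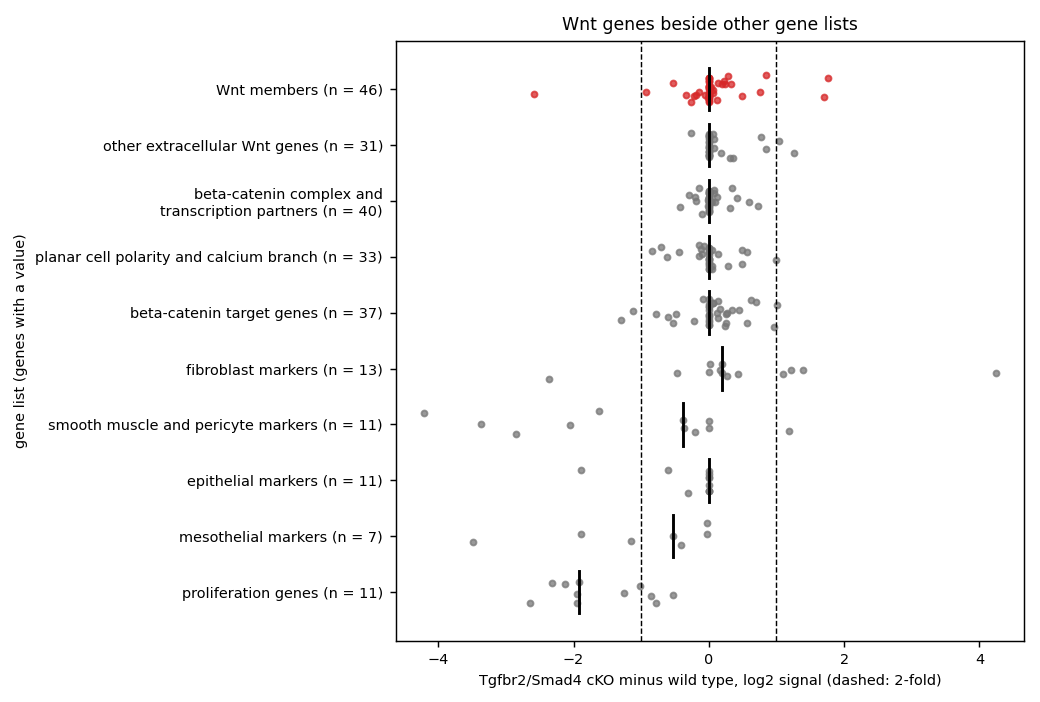
Tgfbr2/Smad4 cKO minus wild type in log2 signal (horizontal axis) for each gene of the Wnt set and of other lists (vertical axis, with the number of genes that had a value), with the list median as a black bar and dashed lines at 2-fold. The 4 Wnt pathway lists and the Wnt set have medians of 0, and the proliferation genes lie to the left with a median of -1.92.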

How the data were processed

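Each of 3 cultured fibroblast lines gave RNA for 1 Affymetrix array (Mouse Gene 1.0 ST), per the labels' protocols. The deposited values were read as log2 signals, because they run from 2.82 to 15.6 and the labels name no scale. Which software, background correction, normalization and build they rest on is not given in the sources used here. Array medians differed by at most 0.00412, so values were used as deposited, with 0 further columns of per-sample values.

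Of 35556 probe sets, 21789 had 1 gene symbol in the platform annotation, 1621 had several and 12146 were not listed. A RefSeq table of GRCm38.p6, used for names and gene order, held the gene identifier of 21698 of the 21789. These took its symbol, and how many symbols changed by this was not counted. Probe sets of a gene were averaged, giving 19938 genes. With 1 array per group no test was made, and a gene was counted at a size of 2-fold. Genes given in each array were those at least 1.5-fold different in any comparison or, in classes without one, the 2 with the largest difference. Fzd2, Fzd3, Sfrp1, Dkk3, Wnt4, Ctnnb1 and the genes of equal value lie outside this rule and were chosen after their values were seen. From the pathway lists, genes at least 2-fold different are named, or the 2 with the largest difference where there were none. The genes and lists were chosen with earlier results of these data known. Alternatives were 3 normalizations, 2 level filters, 2 rules for probe sets, an offset of 32 on the linear scale, 2 size rules and, added after the data were seen, genes not equal in all 3 arrays. Protein sequences were not used here. The counting step was run on simulated arrays in which known genes were shifted by more than the 2-fold size. This checks the code alone, because such shifts pass the rule by design and equal values were not simulated. The tools were limma 3.58.1 in R 4.3.3, for normalization, and Python 3.11.15 with pandas 2.3.3, numpy 2.4.6 and, for plots, matplotlib 3.10.9.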

Additional observations from a re-analysis of the deposited data

How the results depend on the processing

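The counts of Wnt genes at least 2-fold different stayed within 1.5 times, and the medians within 0.1, under median centring, quantile and cyclic loess normalization, both level filters, both rules for probe sets, the offset of 32 and, added after the data were seen, genes not equal in all 3 arrays. With no replicates, 0.1 on the log2 scale stood in for a spread. Several of the settings could hardly move the Wnt counts. Wnt4 alone had more than 1 probe set, and genes equal in all 3 arrays hold no difference to count. Array medians differed by at most 0.00412, so centring shifted little. The level filters left out none of the 3 genes counted. At 1.5-fold the Wnt count was 1 for Tgfbr2 cKO minus wild type. It was 6 for Tgfbr2/Smad4 cKO minus wild type and 7 for Tgfbr2/Smad4 cKO minus Tgfbr2 cKO. Set apart in 1 array at that size were 5 cases above both other arrays and 2 below both. Frzb counts as a case of each, above in Tgfbr2 cKO and below in Tgfbr2/Smad4 cKO. The share of all named genes set apart at that size was not computed. The 3-fold size kept the 2-fold counts of Wnt genes at 3 in both comparisons of the Tgfbr2/Smad4 cKO array. The other pathway genes numbered 18 and 17 at 1.5-fold in those comparisons, or 12.8% and 12.1%, against 5.21% and 5.53% of all named genes. They numbered 0 and 0 at 3-fold, and 2 and 3 with the offset, which shrinks differences of dim genes. Quantile normalization gave 5 higher and 2 lower of these genes in Tgfbr2/Smad4 cKO minus wild type, in place of 3 and 2. With the offset Wnt2 differed from wild type by 1.51, Dkk2 by 1.57 and Frzb by -2.20, and from Tgfbr2 cKO by 1.59, 1.51 and -2.77. No difference of 2-fold or more changed sign. The small difference of Fzd1 in Tgfbr2 cKO minus wild type, 0.0024, was -0.0031 with quantile and -0.0004 with cyclic loess normalization. The motif shares kept within their binomial intervals with the 250 bases before the start alone, which is a weak check. Those bases are part of the 300, and intervals from 38 start sites are wide. They also treat start sites of the same gene as independent. The SMAD share fell from 52.6% to 42.1% and still lay inside. No paired analysis was possible because each group has 1 array. The lack of replicates, the equal values and the absence of a detection call limit small and dim differences most.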

Other observations

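Some Wnt genes lie next to each other in the order of protein-coding genes in the RefSeq table, and they can be read as pairs. On chromosome 1 Wnt6 is followed by Wnt10a, at 7.34 and 7.34 in the wild-type array, and Wnt6 was equal in all 3 arrays while Wnt10a differed by 0.01 in the Tgfbr2/Smad4 cKO array. On chromosome 11 Wnt3a is followed by Wnt9a, equal across the arrays at 6.89 and 7.84, and on chromosome 15 Wnt10b is followed by Wnt1, equal at 6.86 and 6.00. Kremen1 is followed by Znrf3 on chromosome 11. Kremen1 had levels of 9.12, 9.22 and 9.35, and Znrf3 was at 6.92 in each array.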
